A study of Mus musculus with 12 samples.

Results

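The smooth muscle contractile genes described here are 9 genes of the 18193 that the array annotation names: Acta2, Tagln, Cnn1, Myh11, Synpo2, Smtn, Cald1, Actg2 and Myl9. They were chosen by symbol, from probe sets that the platform annotation assigns to a single gene, and together they have 19 such probe sets. For each gene the probe set that was brightest on average across the 12 arrays is described, with its other probe sets beside it.

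The study sorted progenitors made from mouse embryonic stem cells by 2 fluorescent reporters, dsRed driven by an enhancer specific to the second heart field and eGFP driven by a cardiac-specific enhancer. All cells carried the same culture history, differentiation in hanging drops and dissociation of the embryoid bodies at day 6, and the labels name no treatment, strain or clone. There were 4 populations with 3 arrays each: double-positive cells (Red+/Green+), red-only cells (Red+/Green-), green-only cells (Red-/Green+) and double-negative cells (Red-/Green-). Each of the experiments A, B and C gave 1 array of every population. Nothing in the labels says whether the experiments were separate cultures, so p-values measure the spread between these arrays, which may be technical. Both reporters mark cells through transgenic enhancers, so each population is the set of cells on 1 side of each fluorescence gate and need not be a single cell type.

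Smooth muscle contracts when calcium leads to phosphorylation of the regulatory light chain of myosin, after which myosin heads pull on actin filaments. Calponin, caldesmon, transgelin and smoothelin are proteins that bind those filaments. The genes are classical targets of serum response factor (SRF), which binds CArG boxes in DNA, and of its coactivator myocardin. Several of them, among them Acta2, Tagln and Cnn1, are also known to be switched on transiently in the early embryonic heart, whereas Myh11 is a marker of differentiated smooth muscle.

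The promoters of the genes with the clearest differences between populations are shown to place CArG boxes and MCAT elements next to the values below. They are the 250 bases before the transcription start in RefSeq (build GRCm38.p6), 5′ to 3′ on the gene's strand, and 6 of the 9 genes had an entry. Capitals mark a CArG box with at most 1 base off its consensus, or the MCAT element CATTCC on either strand. Acta2, Cnn1 and Synpo2 were the genes called by the F-test over the populations described further on, and Myl9 has the only exact CArG box among these promoters.
Acta2, chr19:34255374-34255623, minus strand: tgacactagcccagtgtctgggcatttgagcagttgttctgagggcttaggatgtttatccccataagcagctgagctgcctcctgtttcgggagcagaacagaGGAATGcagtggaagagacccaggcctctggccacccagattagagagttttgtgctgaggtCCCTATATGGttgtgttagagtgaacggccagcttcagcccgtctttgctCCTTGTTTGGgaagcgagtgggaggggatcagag
Cnn1, chr9:22099003-22099252, plus strand: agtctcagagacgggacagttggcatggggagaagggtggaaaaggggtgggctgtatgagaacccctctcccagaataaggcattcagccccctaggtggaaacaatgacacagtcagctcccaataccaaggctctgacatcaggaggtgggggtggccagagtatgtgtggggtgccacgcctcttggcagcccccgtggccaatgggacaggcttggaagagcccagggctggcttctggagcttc
Synpo2, chr3:123236150-123236399, minus strand: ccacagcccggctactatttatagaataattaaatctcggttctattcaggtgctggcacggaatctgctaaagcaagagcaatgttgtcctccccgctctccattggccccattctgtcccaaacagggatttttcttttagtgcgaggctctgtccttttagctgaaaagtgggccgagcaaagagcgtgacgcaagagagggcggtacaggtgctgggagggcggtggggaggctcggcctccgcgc
Myl9, chr2:156775214-156775463, plus strand: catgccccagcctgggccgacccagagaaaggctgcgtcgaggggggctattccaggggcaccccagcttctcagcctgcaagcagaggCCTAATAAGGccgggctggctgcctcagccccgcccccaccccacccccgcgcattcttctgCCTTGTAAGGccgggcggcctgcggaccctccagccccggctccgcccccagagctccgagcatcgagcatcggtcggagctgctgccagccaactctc
The Acta2 promoter held CArG-like sequences 84 and 34 bases upstream of the start and an MCAT element 146 bases upstream. Myl9 held its exact CArG box 161 bases upstream and a second with 1 base off at 99 bases. Neither element was found in the windows of Cnn1 and Synpo2. Of the other promoters, that of Smtn had an MCAT element 222 bases upstream, and 1 of the 2 Cald1 promoters had a CArG-like sequence at 203 bases and an MCAT element at 153 bases. Searched on both strands, an exact CArG box occurred in 1.47% of 32851 promoters of the same window, a CArG box with at most 1 base off in 18.6% and an MCAT element in 12.6%. A match is a string of letters and not a site shown to be bound, and a window without one says nothing about SRF.

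The values are Affymetrix probe set intensities on a linear scale, whose median ran from 6.29 to 6.73 over the arrays. Changes are log2 fold changes of intensity + 4.10, ± standard error (SE), from 1 limma fit to all arrays with Benjamini-Hochberg adjustment over 13698 genes. A gene was called at an adjusted p under 0.05. The pseudocount shrinks the change of dim probe sets. The 6 pairwise comparisons share arrays, so they are not independent of each other. In RNA from sorted cells, fewer cells of a type and less RNA per cell cannot be told apart.

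**Figure D1:**
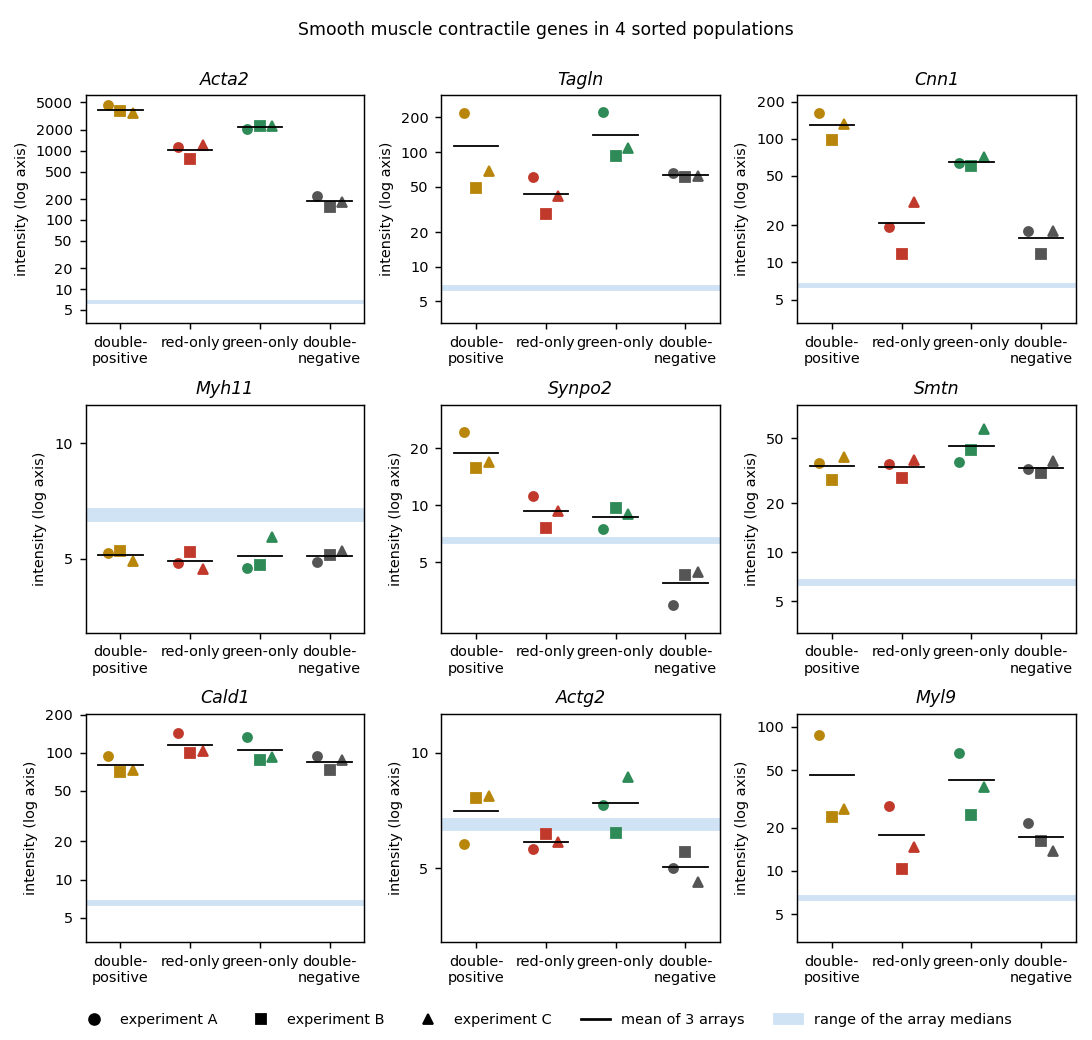
Intensity (log axis) of each gene's probe set on the 12 arrays, with the double-positive, the red-only, the green-only and the double-negative cells from left to right, a marker for each experiment and a bar at the mean of 3 arrays. Acta2 separated all 4 populations, Cnn1 separated double-positive and green-only cells from the others, Synpo2 was lowest in double-negative cells, and Myh11 stayed under the shaded range of the array medians.

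Acta2 encodes smooth muscle alpha-actin, and of the 8 genes tested it had the largest change in each comparison with double-negative cells. Its intensities were 4499, 3747 and 3526 in double-positive arrays A, B and C, 1129, 762 and 1198 in red-only arrays, 2045, 2299 and 2305 in green-only arrays, and 219.9, 156 and 180.1 in double-negative arrays. No 2 populations overlapped. Acta2 was higher by 4.38 ± 0.17 in double-positive cells than in the double-negative cells (limma adjusted p = 2.78e-09), a ratio of mean intensities of 21.2. It was higher by 2.43 ± 0.17 in red-only cells (limma adjusted p = 8.43e-07) and by 3.56 ± 0.17 in green-only cells (2.65e-08) than in double-negative cells. Neighbours in the order also differed: double-positive exceeded green-only cells by 0.82 ± 0.17 (limma adjusted p = 0.0133), and red-only cells were below green-only cells, with a change of -1.13 ± 0.17 (0.00263). The first of these was not called without double-positive array A (0.71, limma adjusted p = 0.0604) or without experiment A (0.66, 0.0768) or C (0.92, 0.0973). The second was not called without experiment B (-0.90, limma adjusted p = 0.0567) or C (-1.22, 0.0595).

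For Acta2 the log2 difference that went with dsRed was smaller among cells that also had eGFP. On the log2 scale, cells with dsRed exceeded cells without it by 0.82 among eGFP-positive and by 2.43 among eGFP-negative cells, and the interaction, the first minus the second, was -1.62 ± 0.23 (limma adjusted p = 9.37e-04). It was the only one of 8 genes called for the interaction, where 10.5% of all genes tested were called, 5.67% with a negative and 4.80% with a positive sign. The interaction was not called without experiment C (-1.38, limma adjusted p = 0.0562). Its direction belongs to the log2 scale: on linear intensity the difference between means was larger among eGFP-positive cells (1708) than among eGFP-negative cells (844.6). A negative interaction was not particular to Acta2. Of 8 cardiac muscle markers 7 were called for it, all negative, with a median of -1.97. Among them was the cardiac actin Actc1 (-2.22 ± 0.35, limma adjusted p = 0.00166).

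The probe set behind these values, 1416454_s_at, belongs to the class whose name marks probes that can be shared with related transcripts, and Acta2 has close actin paralogs. The cardiac actin Actc1 followed it over the 12 arrays with Pearson r = 0.994, the skeletal actin Acta1 with 0.782, and the cytoplasmic actins Actb and Actg1 with -0.256 and -0.615. Intensities of Actc1 were 5244, 4294 and 4142 in double-positive arrays, 844, 505 and 956 in red-only arrays, 2808, 3106 and 3170.0 in green-only arrays, and 157, 77.6 and 88.9 in double-negative arrays. Whether Actc1 transcripts contributed to the Acta2 signal was not tested. Acta2 has 2 other probe sets, both near the array medians. On 1444105_at the values were 10.8, 10.4 and 11.6 in double-positive arrays, 4.46, 4.71 and 6.51 in red-only arrays, 6.51, 5.70 and 8.16 in green-only arrays, and 4.11, 5.22 and 4.43 in double-negative arrays. This probe set separated double-positive cells from every other population, with a change of 0.79 ± 0.10 against double-negative cells (limma adjusted p = 7.17e-05, every probe set tested on its own). The other, 1456658_at, gave 0.45 ± 0.11 in that comparison (limma adjusted p = 0.00642). It was not called in double-positive against red-only (limma adjusted p = 0.0611) or green-only cells (0.529), or in green-only against double-negative cells (0.0837). On both probe sets red-only cells were not called apart from double-negative (limma adjusted p = 0.594 and 0.573) or green-only cells (0.357 and 0.511). Neither probe set was called for the interaction, with changes of 0.37 (limma adjusted p = 0.149) and 0.05 (0.898), opposite in sign to the brighter probe set.

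Actg2 encodes the gamma actin of enteric smooth muscle. It was dim, with 5.77, 7.60 and 7.74 in double-positive arrays, 5.62, 6.15 and 5.85 in red-only arrays, 7.32, 6.19 and 8.65 in green-only arrays, and 5.01, 5.53 and 4.61 in double-negative arrays. Double-negative arrays lay below all others. Actg2 was higher by 0.28 ± 0.09 in double-positive (limma adjusted p = 0.0382) and by 0.32 ± 0.09 in green-only cells (0.0272) than in the double-negative cells. The first was not called without double-positive array B or C, red-only array C or double-negative array A or C (limma adjusted p from 0.0507 to 0.138), and the second not without green-only array C or double-negative array A or C (0.0713 to 0.115). Leaving out experiment B or C ended the first call, and leaving out any of the 3 experiments ended the second. For the 4 populations together the F-test gave an adjusted p of 0.0524 (limma), or 0.0451 with the experiment as a block.

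The heavy chain of smooth muscle myosin, Myh11, was dim in all populations. Its probe sets 1418122_at and 1448962_at had intensities between 4.70 and 5.69 and between 3.90 and 4.95 over the 12 arrays, each below the median of its array. Myh11 was therefore left out by the filter on dim genes, and 8 of the 9 genes were tested. With no filter its changes ran from -0.03 to 0.03 over the 6 comparisons, with limma adjusted p from 0.838 to 0.987. An intensity at this level is not a measure of how much Myh11 RNA was present.

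Cnn1 encodes calponin 1, an actin-binding inhibitor of the myosin ATPase, and it was high in the populations with eGFP. Intensities were 160.5, 98.6 and 131.8 in double-positive arrays, 19.5, 11.7 and 30.9 in red-only arrays, 64.1, 59.8 and 71.0 in green-only arrays, and 17.9, 11.6 and 18.1 in double-negative arrays. Red-only and double-negative arrays overlapped, and both lay below every eGFP-positive array. Cnn1 was higher by 2.74 ± 0.24 in double-positive (limma adjusted p = 2.85e-06) and by 1.80 ± 0.24 in green-only cells (1.95e-04) than in the double-negative cells, and its change in red-only cells was 0.26 ± 0.24 (0.532). It was higher by 2.49 ± 0.24 in double-positive than in red-only cells (limma adjusted p = 2.89e-05), and red-only differed from green-only cells by -1.55 ± 0.24 (0.00416). The difference of 0.94 ± 0.24 between double-positive and green-only cells (limma adjusted p = 0.0430) lost its call in 14 of 25 alternative settings, among them the pseudocount of 1 (0.0582). Of these settings 8 left out a single array, the highest p being that without double-positive array A (0.78, limma adjusted p = 0.164), and had an adjusted p of 0.00306 with the experiment as a block.

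Synpo2, also called myopodin, encodes an actin-bundling protein of smooth muscle and of the Z-disc of striated muscle. Its probe set 1452879_at read 24.2, 15.6 and 16.9 in double-positive arrays, 11.1, 7.58 and 9.28 in red-only arrays, 7.53, 9.66 and 8.96 in green-only arrays, and 2.97, 4.30 and 4.44 in double-negative arrays. Double-positive arrays were above all others and double-negative arrays below all others, while red-only and green-only arrays overlapped. The double-negative values were also below the array medians, which ran from 6.29 to 6.73, so the changes against these cells are set against a dim reference. Synpo2 was higher by 1.51 ± 0.14 in double-positive (limma adjusted p = 3.93e-06), by 0.74 ± 0.14 in red-only (0.00182) and by 0.68 ± 0.14 in green-only cells (0.00368) than in the double-negative cells. It was higher in double-positive than in red-only cells by 0.77 ± 0.14 (limma adjusted p = 0.00305) and than in green-only cells by 0.83 ± 0.14 (0.00496), and red-only against green-only gave 0.06 ± 0.14 (0.903). Without experiment C the adjusted p of the last 2 comparisons with double-positive cells were 0.0572 and 0.0814, and that of green-only against double-negative was 0.0639.

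The other probe sets of Synpo2 did not all follow this order. On 1435399_at the values were 8.07, 5.97 and 6.34 in double-positive arrays, 14.0, 7.41 and 7.02 in red-only arrays, 4.45, 5.81 and 5.01 in green-only arrays, and 3.18, 3.99 and 4.42 in double-negative arrays, with r = 0.590 to 1452879_at. Red-only array A was the highest here. Against double-negative cells this probe set was called in red-only (0.74 ± 0.16, limma adjusted p = 0.00446) and double-positive cells (0.45 ± 0.16, 0.0460), and double-positive against red-only gave -0.29 ± 0.16 (0.319). The remaining 1450828_at and 1441206_at stayed between 4.08 and 7.03. Of these 1450828_at was higher in double-positive cells than in the double-negative cells by 0.25 ± 0.07 (limma adjusted p = 0.0225), and 1441206_at was under the filter.

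Tagln encodes transgelin, or SM22-alpha, and Myl9 the regulatory light chain of smooth muscle myosin. For both, arrays of the same population differed between experiments. Tagln intensities were 218.6, 48.4 and 68.8 in double-positive arrays, 60.1, 28.9 and 41.0 in red-only arrays, 222.9, 92.2 and 108.4 in green-only arrays, and 65.6, 61.2 and 62.2 in double-negative arrays. Experiment A was above B and C in all 4 populations, 3.73 times their mean in double-positive cells, 1.72 times in red-only cells, 2.22 times in green-only cells and 1.06 times in double-negative cells. Myl9 intensities were 87.4, 23.8 and 27.0 in double-positive arrays, 28.4, 10.3 and 14.8 in red-only arrays, 66.1, 24.6 and 38.1 in green-only arrays, and 21.5, 16.2 and 13.8 in double-negative arrays. The ratio of experiment A to the mean of B and C was 3.44, 2.26, 2.11 and 1.44 for Myl9 in the same order of populations.

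Neither gene was called in any comparison when only the populations were fitted. Double-positive against double-negative cells gave 0.50 ± 0.45 for Tagln (limma adjusted p = 0.468) and 1.03 ± 0.43 for Myl9 (0.0916). For Tagln that value rested on double-positive array A and was -0.12 without it. Within experiments A, B and C it was 1.68, -0.31 and 0.14. Red-only against green-only was steadier, at -1.82, -1.55 and -1.32 within the experiments for Tagln and -1.11, -0.99 and -1.16 for Myl9.

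Arrays of the same experiment deviated together across the genome, so the experiment was also fitted as a block. With that replicate block Tagln was higher in green-only cells than in the double-negative cells by 1.01 ± 0.26 (limma adjusted p = 0.0141, against 0.139 without the block) and in double-positive than in red-only cells by 1.05 ± 0.26 (0.0171, against 0.163). Red-only and green-only cells then differed by -1.56 ± 0.26 for Tagln (limma adjusted p = 0.00478, against 0.0888). Myl9 was higher with the block by 1.03 ± 0.20 in double-positive (limma adjusted p = 0.00155) and by 1.06 ± 0.20 in green-only cells (0.00199) than in the double-negative cells. It was also higher in double-positive than in red-only cells, by 1.05 ± 0.20 (limma adjusted p = 0.0036, with the block), and red-only against green-only gave -1.09 ± 0.20 (0.00791). In the blocked fit the Tagln change of red-only against double-negative cells was -0.55 ± 0.26 (limma adjusted p = 0.152), and that of Myl9 was -0.02 ± 0.20 (0.957).

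Without experiment A, an alternative that left 8 arrays, Tagln was lower in red-only cells than in the double-negative cells, with a change of -0.77 (limma adjusted p = 0.0108), and in double-positive than in green-only cells, with a change of -0.75 (0.0452). Its differences of green-only from double-negative cells (0.66, limma adjusted p = 0.0225) and of red-only from green-only cells (-1.43, 0.00153) were then called too. So was its difference of double-positive from red-only cells (0.68, limma adjusted p = 0.0377). Without double-positive array A the Tagln differences of green-only from double-negative cells (limma adjusted p = 0.0286) and of red-only from green-only cells (0.0131) were called, and so was that of Myl9 between green-only and double-negative cells (0.0322). Myl9 in double-positive against double-negative cells was called without double-positive array B (1.34, limma adjusted p = 0.0497). Myl9 was also called without experiment A in double-positive (0.63, limma adjusted p = 0.0256) and green-only cells (0.87, 0.00636) against double-negative cells. That fit also called its differences of double-positive from red-only cells (0.84, limma adjusted p = 0.0167) and of red-only from green-only cells (-1.07, 0.00956).

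**Figure D2:**
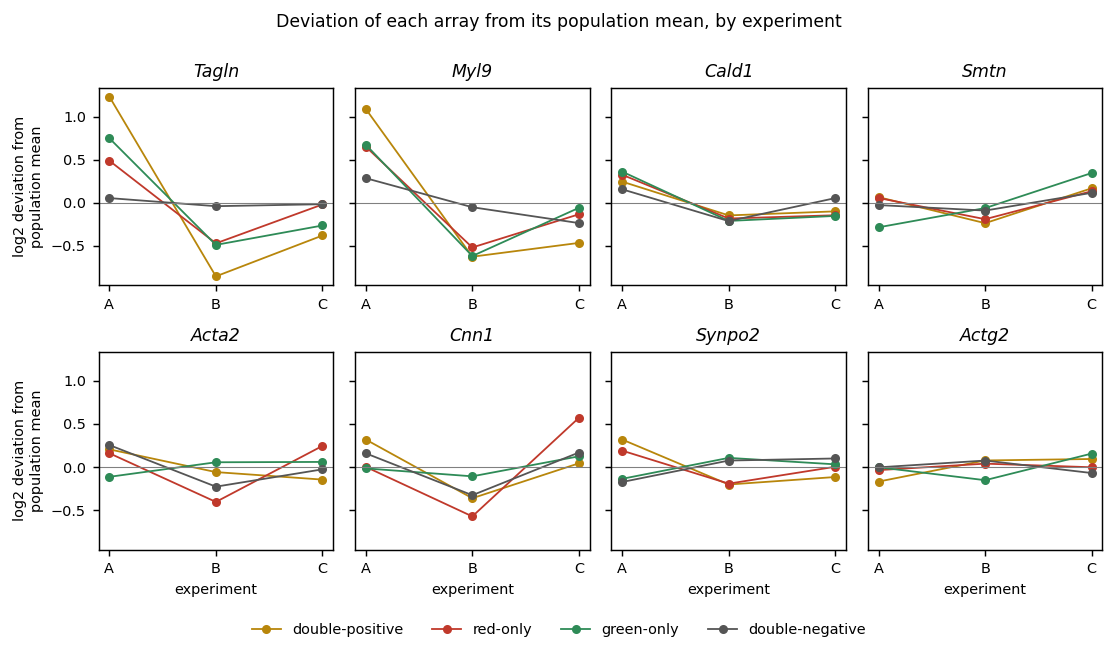
Deviation of each array from the mean of its population (log2 scale) in experiments A, B and C, with a line for each population. Tagln and Myl9 were above the population mean in experiment A in all populations, by 1.23 and 1.09 in double-positive cells, Cald1 followed the same pattern at a smaller size, and Acta2 and Synpo2 showed no common order.

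Tested over all genes with the populations kept in the model, the experiment had an effect on 2.43% of genes, and on Myl9 (limma adjusted p = 0.0173) and Cald1 (0.0204) among the 8 tested. The adjusted p was 0.0521 for Tagln and 0.0709 for Cnn1. This test was added after the values were seen. Deviations of Tagln from its population means correlated over the 12 arrays with those of Myl9 at r = 0.961, of Cald1 at 0.819, of Synpo2 at 0.578, of Cnn1 at 0.486, of Acta2 at 0.398, of Smtn at 0.0501 and of Actg2 at -0.507. Double-positive array A, the highest for both Tagln and Myl9 relative to its population, also had the highest 3′ to 5′ ratio of the actin control probes (1.55, against 1.32 to 1.48 on the others) and the highest 18S ribosomal signal (793.5, the next being 462.7). Its ratio of the Gapdh control probes, 0.945, lay within the 0.883 to 1.01 of the other arrays. The 18S signal was highest in experiment A in the other populations too. It was 448.6 in red-only array A (next 434.2), 353.7 in green-only array A (next 251.3) and 462.7 in double-negative array A (next 308.4). The part of these controls in the Tagln and Myl9 values was not tested.

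Cald1 encodes caldesmon, which holds back the actin-activated myosin ATPase and has both a smooth muscle and a widely expressed form. The probe set 1424769_s_at read 94.2, 70.8 and 73.3 in double-positive arrays, 144.2, 100.2 and 103.0 in red-only arrays, 133.2, 88.3 and 92.1 in green-only arrays, and 95.03, 72.6 and 88.2 in double-negative arrays. Red-only arrays lay above all double-positive and double-negative arrays, and within every experiment the red-only array was the highest. No comparison was called without the block. With the experiment as a replicate block, Cald1 was higher in red-only (0.41 ± 0.08, limma adjusted p = 0.00278) and green-only cells (0.27 ± 0.08, 0.0348) than in the double-negative cells. In the blocked fit it was lower in double-positive than in red-only cells (-0.51 ± 0.08, limma adjusted p = 0.00131) and than in green-only cells (-0.37 ± 0.08, 0.0172), and its interaction was -0.78 ± 0.12 (0.00112, against 0.0656 without the block). The interaction was also called after quantile normalization (limma adjusted p = 0.0369) and without double-positive array A (0.0463), and double-positive against red-only cells without green-only array A (0.0321). Without experiment A, double-positive against red-only cells (-0.47, limma adjusted p = 0.0193) and the interaction (-0.64, 0.0241) were called. The F-test then had an adjusted p of 0.0278 (limma). Of the other probe sets, 1424770_at and 1424768_at followed the first with r = 0.956 each, and 1424768_at was called lower in double-positive than in red-only cells without the block (-0.65 ± 0.18, limma adjusted p = 0.0387). The remaining 1433147_at and 1433146_at stayed between 4.33 and 6.00, below the array medians. Whether any of these probe sets separates the smooth muscle form of Cald1 from the other was not tested.

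Smtn encodes smoothelin, an actin-binding protein of contractile smooth muscle. It had 35.2, 27.7 and 38.1 in double-positive arrays, 34.5, 28.5 and 36.7 in red-only arrays, 35.5, 42.1 and 57.2 in green-only arrays, and 32.2, 30.7 and 36.0 in double-negative arrays. The populations overlapped. Its change of 0.02 ± 0.15 between double-positive and double-negative cells had a 95% interval from -0.31 to 0.35 (limma adjusted p = 0.945). Green-only against double-negative cells gave 0.38 ± 0.15 (limma adjusted p = 0.0973), which was called with the block (0.0196) and without green-only array A (0.53, 0.0202).

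Counted over the genes, 4 of the 8 tested (of 9) were called in double-positive against double-negative cells, all higher: Acta2, Cnn1, Synpo2 and Actg2. In that comparison 31.5% of all genes were called, 13.9% as higher, and the median change was 0.77 for the 8 genes and -0.01 for all genes. In green-only against double-negative cells the same 4 genes were called, all higher, against 20.7% of all genes called and 9.34% as higher, with medians of 0.84 and -0.01. In red-only against double-negative cells 2 were called, Acta2 and Synpo2, both higher, against 23.6% of all genes, 10.9% as higher and 12.7% as lower, with medians of 0.19 and -0.02. Acta2, Cnn1 and Synpo2 were called higher in double-positive than in red-only cells, where 12.1% of all genes were called, 5.94% as higher and 6.17% as lower. The same 3 genes were called higher in double-positive than in green-only cells, where 5.63% of all genes were called and 2.85% as higher. Red-only against green-only cells gave 2 calls, Acta2 and Cnn1, both lower, where 3.09% of all genes were called and 1.77% as lower. The F-test over the 4 populations called 3 genes, Acta2, Cnn1 and Synpo2, and 32.3% of all genes.

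Some of these counts changed when arrays were left out. Numbers in brackets are the calls among all genes tested. With all arrays these were 2842 in green-only against double-negative, 1659 in double-positive against red-only and 771 in double-positive against green-only cells. They were 423 in red-only against green-only cells, 1435 for the interaction and 4427 by the F-test. Without double-positive array A, 1 gene was called in double-positive against green-only cells (357), 2 for the interaction (1219) and 5 by the F-test (3923). Without experiment A, 6 were called in double-positive against red-only cells (1168) and 4 in red-only against green-only cells (439). That fit called 2 for the interaction (1208) and 6 by the F-test (3622). Without experiment B 1 was called in red-only against green-only cells (51). Without experiment C, 2 were called in green-only against double-negative cells (1370) and 1 in red-only against green-only cells (95). That fit called 0 in double-positive against green-only cells (187) and 0 for the interaction (434). Wherever fewer of the contractile genes were called here, fewer of all genes were called too. The only bracketed count above its total with all arrays was that of red-only against green-only cells without experiment A.

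The replicate block moved several of these counts. It called 5 of the 8 genes in double-positive against double-negative cells (35.6% of all genes), 3 in red-only against double-negative cells (28.4%) and 4 in double-positive against green-only cells (9.37%). In green-only against double-negative cells it called all 8 genes tested, each higher, where it called 25.3% of all genes. In double-positive against red-only cells it called 6, 5 of them higher and Cald1 lower (16.8% of all genes), and in red-only against green-only cells 4, Acta2, Tagln, Cnn1 and Myl9, all lower (5.75% of all genes). The blocked interaction called 2 genes, Acta2 and Cald1 (15.0% of all genes), and the blocked F-test called all 8 tested (39.0% of all genes).

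**Figure D3:**
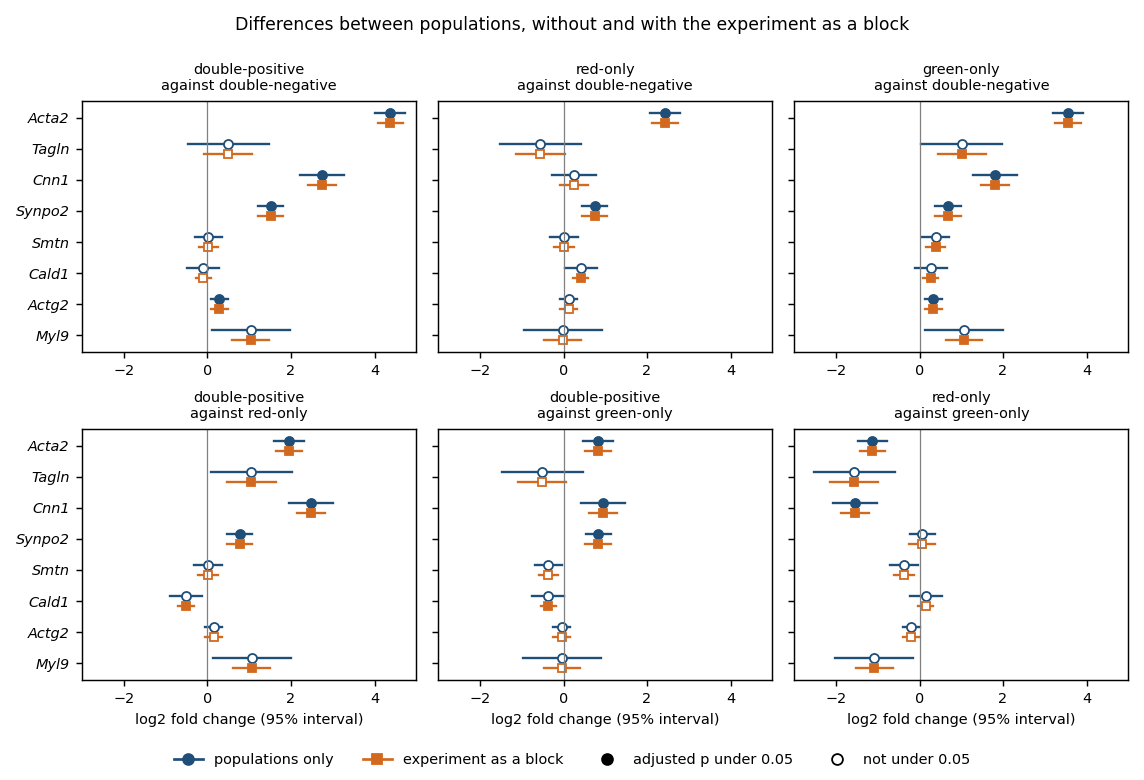
Log2 fold change with its 95% interval for the 8 genes tested in 6 comparisons, from the populations alone (circles) and with the experiment as a block (squares), filled where the adjusted p was under 0.05. Acta2, Cnn1 and Synpo2 were called either way in double-positive against double-negative cells, while Tagln, Myl9 and Cald1 had narrower intervals and more calls with the block.

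For each gene tested, the 3 genes with the highest Pearson correlation over the 12 arrays were listed, as a description of arrays that share the 4 populations. Acta2 was most like Myl4 (0.997), Tnnt2 (0.997) and Myh7 (0.995), which encode sarcomere proteins. Myl4, for example, read 4363, 3365 and 3270.0 in double-positive arrays, 551, 491 and 829 in red-only arrays, 1549, 1895 and 1905 in green-only arrays, and 83.4, 41.3 and 68.9 in double-negative arrays. Cnn1 was most like Gm2a (0.988), Hcfc1r1 (0.981) and Hk1 (0.980). Synpo2 was most like Mtfr1l (0.972), Ak1 (0.972) and Smyd2 (0.971). Hk1 and Ak1 encode hexokinase and adenylate kinase.

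Tagln was most like Ddah1 (0.939), Myl9 (0.930) and Rcan1 (0.929), and Myl9 like Tagln, Rcan1 (0.927) and Tmem170b (0.920). Ddah1 was highest in experiment A in 3 populations and lowest there in the double-negative cells, with 79.8, 27.5 and 36.8 in double-positive arrays, 27.5, 15.97 and 17.1 in red-only arrays, 87.1, 34.8 and 28.9 in green-only arrays, and 30.9, 31.4 and 33.6 in double-negative arrays. Cald1 was most like Tnc (0.950), Parm1 (0.936) and Lrrc58 (0.931). Tnc, the matrix protein tenascin C, read 23.5, 6.35 and 8.44 in double-positive arrays, against 115.4, 41.5 and 34.7 in red-only arrays. Smtn (Gm6277 at 0.870, Tmem217 at 0.854 and Ndrg1 at 0.838) and Actg2 (Ric8a at 0.897, Btd at 0.880 and Gnat2 at 0.858) had lower best correlations. Between the genes themselves, Acta2 correlated with Synpo2 at 0.888, with Cnn1 at 0.877, with Tagln at 0.399 and with Cald1 at 0.0387.

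Other genes of the contractile programme were taken from lists. Of 21 other smooth muscle and SRF-linked cytoskeletal genes tested, 15 were higher in double-positive cells than in the double-negative cells and 6 were not called, with a median change of 0.84. Of all genes tested 13.9% were higher and 17.6% lower in that comparison. The largest changes were in Nexn (3.99), Tpm1 (3.27), Des (2.77) and Csrp2 (2.14), which encode nexilin, tropomyosin 1, desmin and a LIM-domain protein of smooth muscle. Tropomyosin, nexilin and desmin are also proteins of heart muscle. Tpm1 averaged 3652 ± 250 in double-positive, 898 ± 222 in red-only, 2072 ± 207 in green-only and 379 ± 69.0 in the double-negative cells (SD, n = 3 each). Against double-negative cells, red-only cells had 12 of the 21 higher (13 with the replicate block) and green-only cells had 14 (15 with the block), and the rest were not called. Of all genes 10.9% and 9.34% were higher in these comparisons. The block called 28.4% and 25.3% of all genes there in either direction. In red-only against green-only cells 3 were lower (Tpm1, -1.23; Fhl2, -0.91; Csrp1, -0.76) and 2 were higher (Pdlim3, 0.98, and Itga8, 0.55, named after its value was seen). With the replicate block 5 were lower, where it called 5.75% of all genes in either direction. Of all genes 1.77% were lower and 1.32% higher in red-only against green-only cells without the block.

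The paralogs of the 9 genes moved in both directions. Of 20 tested, 10 were higher and 6 lower in double-positive cells than in the double-negative cells (13.9% and 17.6% of all genes), with a median of 0.24. The largest changes were in Actc1 (5.41), the Synpo2 relative Synpo2l (4.10), supervillin Svil (2.46) and Acta1 (1.96). Nonmuscle myosin chains went both ways: Myh9 (-1.34), Myh14 (-0.44) and Myl12b (-1.32) were lower, and Myh10 (0.50), Myl12a (0.43) and Myl6 (0.65) were higher. So did the transgelins, with Tagln2 lower (-0.88) and Tagln3 higher (0.33), and the calponins, with Cnn2 higher (1.49, limma adjusted p = 1.63e-05) and Cnn3 lower (-0.53, 0.00343). These 10 genes were chosen after their values were seen.

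Of 14 regulators of smooth muscle myosin and tone tested, 11 were higher and 1 was lower in double-positive cells than in the double-negative cells (13.9% and 17.6% of all genes), with a median of 0.61. The largest changes were in the calcium channel gene Cacna1c (2.41), the cGMP-dependent kinase Prkg1 (2.17) and the soluble guanylate cyclase subunits Gucy1b1 (1.66) and Gucy1a1 (1.01). The lower gene was Ppp1r14a (-0.32, limma adjusted p = 0.0355), an inhibitor of myosin phosphatase. Mylk, the kinase of the myosin light chain, was under the filter, with means of 4.99 in double-positive, 4.86 in red-only, 4.94 in green-only and 5.04 in the double-negative cells. Mylk and Ppp1r14a were named after their values were seen.

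Myocardin, Myocd, was higher by 4.03 in double-positive (limma adjusted p = 4.02e-10), by 2.69 in red-only (2.75e-08) and by 3.03 in green-only cells (5.89e-09) than in double-negative cells. It averaged 227.6 ± 18.1 in double-positive, 87.2 ± 7.71 in red-only, 111.5 ± 4.37 in green-only and 10.2 ± 2.55 in the double-negative cells (SD, n = 3 each), and its correlation with Acta2 over the 12 arrays was 0.984. Of 8 myocardin and SRF factors, 5 were higher and 1 lower in double-positive cells than in the double-negative cells (13.9% and 17.6% of all genes), with a median of 0.63. Besides Myocd the higher ones were Tead1 (1.06), Srf (1.02), Klf4 (0.88) and Mrtfb (0.38), and Mrtfa was lower (-0.41). Elk1 (0.10, limma adjusted p = 0.419) and Prrx1 (-0.06, 0.624) were not called. In green-only against double-negative cells 3 of the 8 were higher (9.34% of all genes), or 5 with the replicate block (25.3% of all genes called in either direction). Of 12 genes of TGF-beta signalling, which induces smooth muscle genes in several cell types, 3 were higher (Tgfb2, 1.66; Tgfb1, 0.69; Tgfbr1, 0.40) and 1 was lower (Skil, -0.75) in double-positive cells than in the double-negative cells, with a median of 0.03, a share near the 31.5% of all genes called. Against double-negative cells red-only cells had 5 of the 12 higher (10.9% of all genes) and green-only cells had 6 (9.34%). The replicate block called 6 higher and 1 lower in each, where it called 28.4% and 25.3% of all genes in either direction. For the interaction 6 were called, all negative, where 10.5% of all genes were called and 5.67% with a negative sign.

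**Figure D4:**
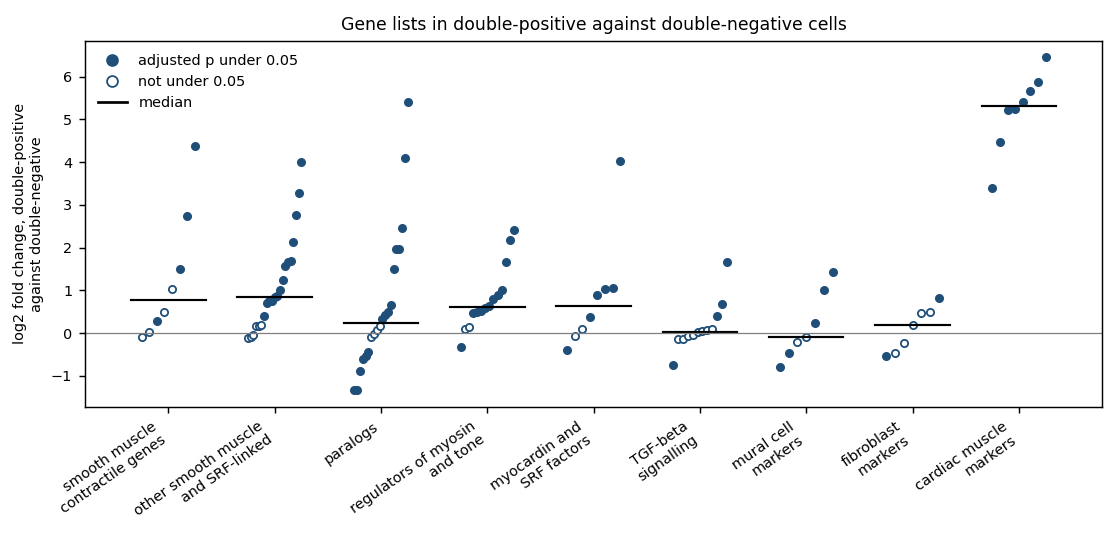
Log2 fold change of each tested gene in double-positive against double-negative cells, by list, with a bar at the median and filled points where the adjusted p was under 0.05. The 8 cardiac markers lay highest (median 5.32), the 8 tested smooth muscle contractile genes had a median of 0.77, and mural cell markers had genes on both sides of 0.

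Markers of several other cell types also differed between the populations. Of all genes tested, 13.9% were higher and 17.6% lower in double-positive against double-negative cells. For red-only cells these shares were 10.9% and 12.7%, and for green-only cells 9.34% and 11.4%. The replicate block called 28.4% of all genes in either direction for red-only and 25.3% for green-only cells against double-negative cells. All 8 cardiac muscle markers were higher in each of the other populations than in double-negative cells, and their summed intensity was 15659 to 19533 in double-positive, 3201 to 4749 in red-only, 8235 to 10587 in green-only and 347 to 488 in double-negative arrays. On the linear scale the population means of Acta2, Cnn1 and Myl9 came in the same order. For Cnn1 red-only and double-negative cells were not called apart (limma adjusted p = 0.532). For Myl9 no neighbours in the order were called apart without the block. With the block only red-only and green-only cells were (limma adjusted p = 0.00791). In double-positive against green-only cells Myl9 was higher in 1 of 3 experiments, and its log2 change was -0.03 ± 0.43. Red-only against double-negative cells gave -0.02 ± 0.43 for Myl9. Of 7 mural cell markers tested (of 9), 3 were higher and 2 lower in double-positive cells than in the double-negative cells, and the summed intensity was 165 to 191 in double-positive, 272 to 295 in red-only, 186 to 226 in green-only and 168 to 190.3 in double-negative arrays. Kcnj8 and Tbx18 were below the median of every array. Of 6 skeletal muscle markers, 4 were below every array median and the 2 tested were not called in any pairwise comparison. Fibroblast markers summed to 138 to 208.5 in double-positive, 225 to 689 in red-only, 128.5 to 281 in green-only and 117 to 149.7 in double-negative arrays. All 6 pluripotent cell markers were lower in each of the other populations than in the double-negative cells, with sums of 96.2 to 115.6 in double-positive, 106.4 to 141.6 in red-only, 115.8 to 148.0 in green-only and 1427 to 1701 in double-negative arrays. Of 5 embryonic blood markers 3 were lower in each of them, with sums of 57.5 to 104.5 in double-positive, 60.2 to 142.2 in red-only, 81.5 to 116.7 in green-only and 1068 to 1960.0 in double-negative arrays. Of 7 endothelial markers red-only cells had 3 higher (4 with the replicate block) and green-only cells had 3 higher (6 with the block) than the double-negative cells, and sums were 202.5 to 292.4 in double-positive, 524.7 to 746.9 in red-only, 284.4 to 842.7 in green-only and 136.6 to 234.9 in double-negative arrays. Endoderm markers summed to 81.2 to 157.3 in double-positive, 78.0 to 175.2 in red-only, 175.6 to 958.9 in green-only and 168.0 to 533.5 in double-negative arrays. The part of any of these cell types in the values of the 9 genes was not tested.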

How the data were processed

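Gene expression was measured with 12 Affymetrix arrays, 3 for each of 4 populations, which were taken from the sample titles because the labels' account of the sort misprints 1 of them. The authors deposited 1 linear intensity per probe set and array, for which the labels name MAS5 without a version. The lowest value is 2.09, and the trimmed means of the arrays are unequal, between 22.3 and 23.9. No detection calls or genome build are given in the sources used here, and the number of arrays limits the precision.

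Probe sets were joined to the platform annotation, and those with several genes (932) or none (9160) were left out. The 25th percentile of the table, 4.10, was added to each intensity before taking log2, and the arrays were not normalized again. A gene had to reach a mean log2 value of 3.22, the 40th percentile over probe sets, and 13698 genes did. limma 3.58.1 in R 4.3.3 fitted 1 mean per population (8 residual degrees of freedom), with the 6 pairwise comparisons, the interaction of the reporters and an F-test each adjusted by Benjamini-Hochberg. Tests other than the F-test were two-sided. An exact permutation test of 3 arrays against 3 cannot give a p below 0.1. matplotlib 3.10.9 (Python 3.11.15) made the figures.

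Experiments A, B and C are named in the sample titles. Deviations from the population means correlated between arrays of the same experiment at r = 0.116 to 0.423 in all 18 pairs, and between arrays of different experiments at 0.0718 or less, so the letters were taken to pair the arrays. The fit with the experiment as a replicate block called 4870 genes in double-positive against double-negative cells, against 4315 without it, and its values stand with the results on the 9 genes and with the list counts it changed. Alternatives were the pseudocount, quantile normalization, the filter, single probe sets, an intensity trend, the block, a minimum fold and leaving out arrays or experiments. The scripts were tested on simulated data.

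The 9 genes and the gene lists were chosen with earlier results of these data known. Named were all 9 genes, the 3 genes most correlated with each, up to 4 genes of a list with the largest change past the threshold, and all myocardin and SRF factors. Other genes are marked as chosen after their values were seen.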

Additional observations from a re-analysis of the deposited data

Results flagged for a closer look

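On the log2 scale the Acta2 difference between red-positive and red-negative cells depended on the eGFP reporter: it was 0.82 among eGFP-positive and 2.43 among eGFP-negative cells, and the test of that difference, the interaction, gave -1.62 ± 0.23 on the log2 scale (limma adjusted p = 9.37e-04). All 3 experiments went the same way, with a dsRed difference of 1.14, 0.70 and 0.61 among eGFP-positive cells and of 2.34, 2.26 and 2.71 among eGFP-negative cells. It was called on 1416454_s_at and not on the dimmer probe sets 1444105_at (0.37, limma adjusted p = 0.149) and 1456658_at (0.05, 0.898). A negative interaction was also called in 7 of 8 cardiac muscle markers, among them Actc1 (-2.22, limma adjusted p = 0.00166), and in 5.67% of all genes.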

How the results depend on the processing

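Of 1576 values of single genes under alternative settings, 1433 kept their direction and their side of the threshold, 50 became called, 44 lost their call and 49 uncalled ones changed sign; no called value changed direction. Myh11, under the filter, has values only with no filter. In all alternatives Acta2 and Cnn1 stayed called in double-positive against double-negative, green-only against double-negative and double-positive against red-only cells, and Synpo2 in double-positive against double-negative cells. The number of the 8 genes called moved as follows. With the replicate block it was 8 for green-only against double-negative cells, 6 for double-positive against red-only, 4 for red-only against green-only, 2 for the interaction and 8 for the F-test, against 4, 3, 2, 1 and 3. Quantile normalization gave 2 for the interaction. A minimum log2 fold change of 1 gave 1 for red-only against double-negative, 2 for green-only against double-negative and 0 for double-positive against green-only cells. Leaving out 1 array or 1 experiment gave 3 to 5 genes called in double-positive against double-negative cells, 2 to 3 in red-only against double-negative, 2 to 6 in green-only against double-negative, 2 to 6 in double-positive against red-only, 0 to 3 in double-positive against green-only, 1 to 4 in red-only against green-only, 0 to 2 for the interaction and 3 to 6 for the F-test. Among all genes, testing every probe set called 6611 probe sets in double-positive against double-negative cells, against 4315 genes. The block called 1283 genes in double-positive against green-only (771 without it) and 787 in red-only against green-only cells (423 without it), where fits to the 6 arrays alone called 258 and 200. A minimum log2 fold change of 1 called 715, 461 and 381 genes in the double-positive, the red-only and the green-only against double-negative cells (4315, 3231 and 2842 with no minimum), 275 in double-positive against red-only (1659), 153 in double-positive against green-only (771), 121 in red-only against green-only (423) and 388 for the interaction (1435). Leaving out 1 array or experiment gave 2732 to 4578, 1767 to 3589 and 1296 to 3174 genes in the 3 populations against double-negative cells, 615 to 1960 in double-positive against red-only, 187 to 777 in double-positive against green-only, 51 to 475 in red-only against green-only, 253 to 1703 for the interaction and 2340 to 4809 for the F-test (4427 with all arrays). The block changed no other call on the 9 genes than those given with the results. A minimum fold calls fewer genes by construction, and the causes of the other changes were not tested. Dim probe sets, those of Actg2, Myh11 and the lesser ones of Acta2 and Synpo2, lie near the array medians and limit what can be said of them. The same limit holds for 1452879_at of Synpo2 in double-negative cells, where it was below the array medians.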
